A study of Mus musculus with 15 samples.

Results

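The 7 genes described here encode the pro-survival branch of the BCL2 protein family in the mouse: Bcl2, Bcl2l1 (the protein BCL-XL), Bcl2l2 (BCL-W), Mcl1, and 3 near-identical copies of the gene for A1, namely Bcl2a1a, Bcl2a1b and Bcl2a1d. They were taken by symbol from a table of 51912 genes. All 7 passed the filter on low counts, which 15692 genes passed in all. The table covered 15 RNA-seq libraries from wild-type mouse B cells, 3 biological replicates in each of 5 groups. The B cells had been grown for 6 days on 40LB cells, a mouse fibroblast feeder line engineered to present CD40 ligand and BAFF, with IL-4 at 100 ng/ml. The day 6 group is the unsorted culture at that point. For the other 4 groups the B cells were taken off the feeder, kept without stimulation for 2 days, and sorted at day 8 into IgE PC (plasma cells), IgG1 PC, IgE iGC cells and IgG1 iGC cells. The abbreviation iGC is used as the labels give it. All groups therefore share the 40LB and IL-4 culture, and only the day 6 group was sampled with the feeder still present. The study asked, by its title, how calcium signalling bears on the differentiation and survival of IgE plasma cells.

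Proteins of this branch sit on the outer mitochondrial membrane and bind the killers of their own family. They hold the pore formers BAX and BAK in check, and they are in turn occupied by the BH3-only proteins, such as BIM (Bcl2l11), PUMA (Bbc3), NOXA (Pmaip1), BMF and BID, that report stress or the loss of growth signals. Different BH3-only proteins prefer different partners: NOXA binds MCL1 and A1, whereas BIM and PUMA bind the whole branch. In the B lineage, A1 and BCL-XL are known as genes induced by CD40 and the B cell receptor through NF-κB, BCL2 is high in resting B cells and low in germinal centres, and MCL1, a protein with a short life, is needed by germinal centre B cells and by plasma cells.

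The libraries held 17.7 M to 54.1 M expected counts each, the fewest in IgE iGC replicate 3. Immunoglobulin genes took 15.3% to 21.7% of the counts in the 6 plasma cell libraries and 1.39% to 1.62% in the other 9, so how libraries are scaled bears on every comparison with a plasma cell group. Values below are CPM, that is, counts relative to library size, after TMM scaling, which sets the bulk of genes level between libraries, unless TPM, which also divides by transcript length, is named. Summed over 7 plasma cell markers (Sdc1, Prdm1, Xbp1, Irf4, Jchain, Tnfrsf17, Slamf7), the libraries reached 16782 to 19231 CPM when labelled IgE PC and 9369 to 13661 CPM when labelled IgG1 PC, against 580 to 1070 CPM elsewhere. In the plasma cells Jchain made up most of this sum (means 7172 CPM for IgG1, 12642 CPM for IgE). Every marker except Slamf7 was higher in each plasma cell library than in any other library, and to that extent both labels held. Slamf7 was highest at day 6 (534 to 570 CPM, IgE PC 464 to 503, IgG1 PC 268 to 312). Sdc1, Irf4, Jchain, Tnfrsf17 and Slamf7 were higher in IgE PC without overlap, whereas Xbp1 and Prdm1 overlapped between the isotypes. The 3 IgG1 PC libraries differed most among themselves of the 5 groups: the chi-square per degree of freedom between their counts, a measure that grows with depth, was 101 and 71.9 for replicate 1 against replicates 2 and 3 and 29.8 between those, against at most 25.2 in any other group. In bulk libraries such as these, a smaller share of cells that express a gene and less RNA of it per cell cannot be told apart.

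The 3 Bcl2a1 copies are shown first as sequence, because how far they differ sets how far their counts can be separated. They lie on chromosome 9 (GRCm38): Bcl2a1a (ENSMUSG00000102037) at chr9:88956900-88962419 on the plus strand, Bcl2a1b (ENSMUSG00000089929) at chr9:89199209-89207827 on the plus strand, and Bcl2a1d (ENSMUSG00000099974) at chr9:88723285-88731914 on the minus strand. Their coding sequences are 516 bases each and differ at 12 positions in all: 11 between Bcl2a1a and Bcl2a1b, 7 between Bcl2a1a and Bcl2a1d, and 6 between Bcl2a1b and Bcl2a1d. The first 76 coding bases, as long as a read, hold 6 of these positions, printed in capitals. They are exonic and lie at chr9:88957051-88957126 (plus strand), chr9:89199360-89199435 (plus strand) and chr9:88731644-88731719 (minus strand).
Bcl2a1a: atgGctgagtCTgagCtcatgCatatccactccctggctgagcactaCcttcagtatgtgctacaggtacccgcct
Bcl2a1b: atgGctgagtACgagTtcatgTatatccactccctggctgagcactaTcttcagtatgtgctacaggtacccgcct
Bcl2a1d: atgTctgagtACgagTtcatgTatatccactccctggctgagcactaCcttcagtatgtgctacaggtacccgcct
A read of this whole stretch can be told apart among the 3 copies. Its match to other genes was not looked at for this stretch alone. A little farther on, coding bases 95 to 170 are the same in the 3 copies (chr9:88957145-88957220, chr9:89199454-89199529 and chr9:88731550-88731625), and a read from there fits each of them equally well.
Shared stretch: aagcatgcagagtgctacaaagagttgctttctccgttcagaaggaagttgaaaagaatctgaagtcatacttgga
Of the 441 windows of read length in the coding sequence, 149 (33.8%) showed no difference among the 3 copies. Over whole transcripts (GENCODE vM21), 45.3% of the 76-base windows of Bcl2a1a, 32.1% of those of Bcl2a1b and 32.7% of those of Bcl2a1d occurred in no other gene. The others were shared among the copies, Bcl2a1c and the predicted gene Gm29094. For Bcl2, Bcl2l1 and Mcl1 every window was unique, and for Bcl2l2 88.5% were, the rest being shared with the predicted gene Gm20521.

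The expected counts carry the same mark. RSEM divides a read that fits several genes among them, which leaves a count that is not whole. Counts that missed a whole number by more than 0.005 occurred in 15 of 15 libraries for Bcl2a1a, Bcl2a1b and Bcl2l2 and in 14 of 15 for Bcl2a1d, but in 0 of 15 for Bcl2, Bcl2l1 and Mcl1. The split among copies was steady: as a group mean, Bcl2a1b took 57.2% to 63.5% of the summed expected counts of the copies, Bcl2a1d 34.5% to 41.04%, and Bcl2a1a 1.15% to 2.07%. Bcl2a1a is thus a gene of 20.63 to 168.56 expected counts per library whose reads sit beside up to 4644.86 counts of Bcl2a1b, and its own level is uncertain. The sum of the 3 copies does not depend on that split and is used for A1 below. The other genes that share sequence were low: Gm29094 averaged at most 2.38 CPM, Gm20521 2.00 CPM and Bcl2a1c 0.60 CPM in any group.

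Stretches upstream of the copies are alike as well. In the RefSeq promoter table (GRCm38.p6), a stretch of 120 bases that ends some way before the RefSeq start is identical in Bcl2a1a (chr9:88956736-88956855, plus strand) and Bcl2a1b (chr9:89199045-89199164, plus strand), and 90.5% of 126 aligned columns are identical between either of them and Bcl2a1d (chr9:88731915-88732034, minus strand). Capitals mark TTTCC, the reverse complement of GGAAA, the core that NFAT factors bind; NFAT is the transcription factor that calcium signalling activates.
Bcl2a1a and Bcl2a1b: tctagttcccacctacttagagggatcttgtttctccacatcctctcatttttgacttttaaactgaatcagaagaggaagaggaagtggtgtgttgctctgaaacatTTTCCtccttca
Bcl2a1d: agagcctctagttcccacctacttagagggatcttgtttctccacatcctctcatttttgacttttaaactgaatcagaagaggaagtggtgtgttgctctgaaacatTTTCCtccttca
Over the full 300-base promoter windows (250 before to 50 after the start), searched on both strands, GGAAA was present in all 9 windows of the 7 genes and in 61.3% of the 32851 windows of the table. The κB pattern (GGG, 5 bases of any kind, CC) was present for Bcl2, Mcl1, Bcl2l2, Bcl2a1b and 1 of the 3 windows of Bcl2l1, and in 50.8% of all windows. TGACG, the core of the cyclic AMP response element, was present for Bcl2, Mcl1 and the 3 Bcl2a1 copies, and in 20.8% of all. TTCNNNGAA, the STAT pattern, was in none of the 9 and in 8.3% of all. Short patterns of this kind are common, and a match describes letters only. The windows of the copies do not cover like sequence. The Bcl2a1b window (chr9:89199023-89199322) reaches farther past the 120-base stretch than the Bcl2a1a window (chr9:88956670-88956969) does. The κB match in Bcl2a1b alone thus cannot be read as a difference between the copies.

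**Figure D1:**
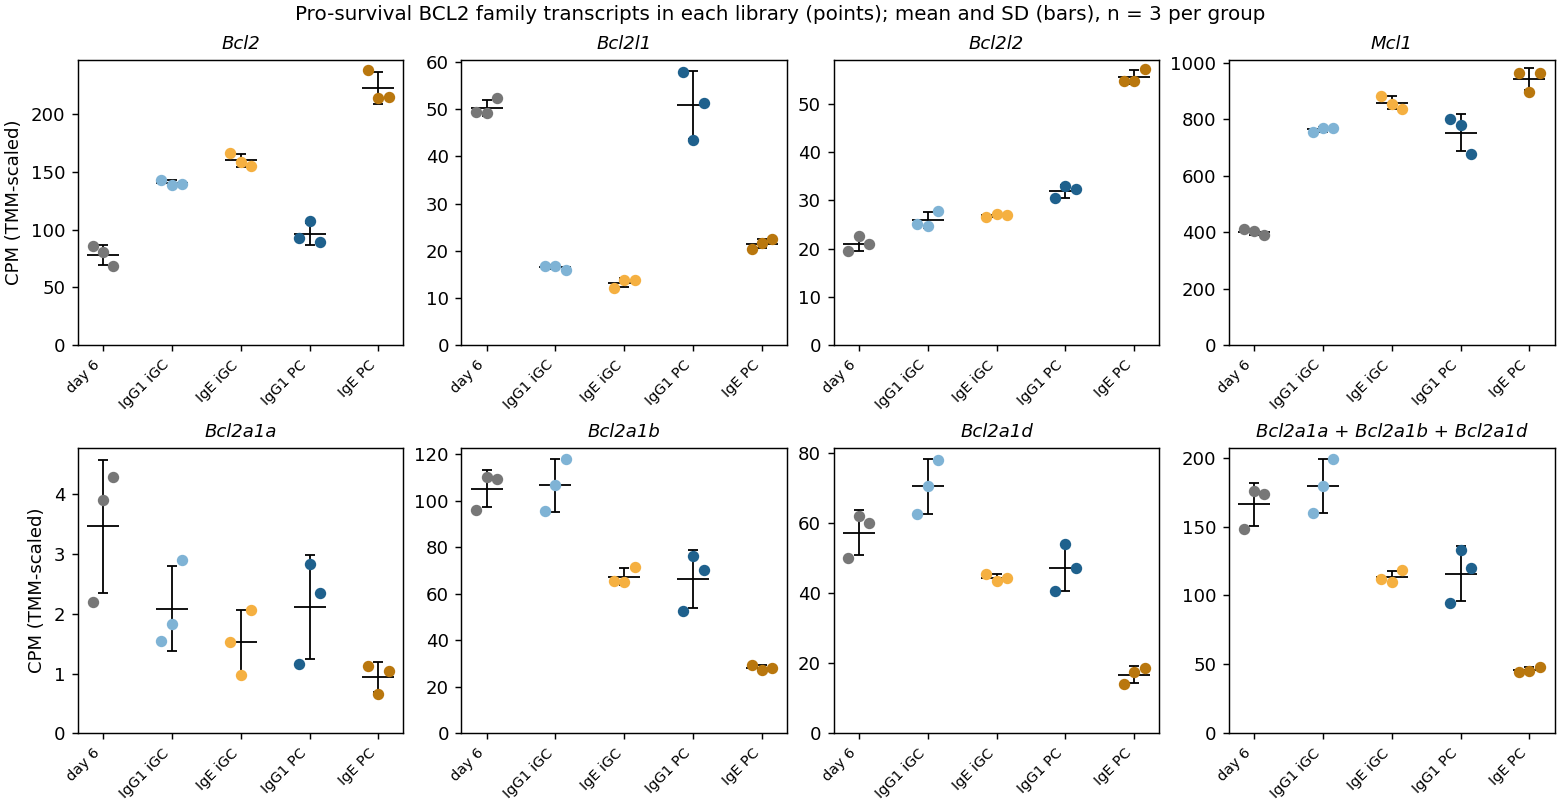
CPM of each of the 7 genes, and of the 3 Bcl2a1 copies summed, in each of the 15 libraries (points), with the mean and SD of each group (bars, n = 3), on axes that start at 0. IgE PC libraries sit highest for Bcl2 and Bcl2l2 and lowest for the Bcl2a1 sum, and Bcl2l1 is high in day 6 and IgG1 PC.

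Bcl2 (ENSMUSG00000057329, chr1:106538178-106714274, minus strand) encodes the founding member of the family. It was measured at 85.7, 80.4 and 68.9 CPM in the day 6 libraries, 143, 138 and 139.8 CPM in IgG1 iGC, 166, 159 and 155 CPM in IgE iGC, 92.7, 107.5 and 89.0 CPM in IgG1 PC, and 238, 214 and 215 CPM in IgE PC. Every IgE PC library lay above every other library, and every day 6 library below. In the plasma cells, Bcl2 was 2.31-fold higher in IgE than in IgG1 (log2 1.21, SE 0.08, adjusted p = 1.24e-08 by edgeR's quasi-likelihood test with Benjamini-Hochberg adjustment, higher in 3 of 3 libraries). From iGC to PC the isotypes went opposite ways: Bcl2 fell by 0.54 on the log2 scale in IgG1 (SE 0.08, adjusted p = 4.4e-05) and was 0.47 higher in IgE (SE 0.08, adjusted p = 9.61e-05). That difference between the isotypes, tested as an interaction (IgE PC minus IgE iGC, less IgG1 PC minus IgG1 iGC), was 1.02 (SE 0.12, adjusted p = 7.17e-06). The IgG1 fall and the interaction kept their call under every scaling tried. The rise in IgE did not: scaled to total counts, with the immunoglobulin reads left in the total, it was 0.01 (adjusted p = 0.96), and on log2(TPM + 1) it was -0.26 (adjusted p = 0.0318).

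Ordered by CPM, Bcl2 ran from day 6 (78.3 ± 8.60, SD, n = 3) through IgG1 PC (96.4 ± 9.80), IgG1 iGC (140.4 ± 2.41) and IgE iGC (160.0 ± 5.64) to IgE PC (222 ± 13.8). Of the neighbours in this order, IgG1 iGC and IgE iGC did not differ by the test (log2 0.19, 95% interval 0.02 to 0.36 before adjustment, adjusted p = 0.281). The other neighbours did, among them IgG1 PC over day 6 by 0.30 on the log2 scale (adjusted p = 0.00417). That last step was 0.02 under total-count scaling (adjusted p = 0.859) and -0.38 in TPM (adjusted p = 0.00351).

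Bcl2l1 (ENSMUSG00000007659, chr2:152780668-152831728, minus strand) encodes BCL-XL. Its 3 libraries gave 49.4, 49.3 and 52.3 CPM at day 6, 16.8, 16.9 and 15.99 CPM in IgG1 iGC, 12.1, 13.9 and 13.8 CPM in IgE iGC, 57.9, 43.5 and 51.3 CPM in IgG1 PC, and 20.4, 21.6 and 22.5 CPM in IgE PC. Day 6 and IgG1 PC formed the high end and overlapped in CPM (log2 0.01, adjusted p = 0.885), although IgG1 PC was called lower under total counts (-0.27, adjusted p = 0.0048) and in TPM (-0.67, adjusted p = 1.75e-05), and the other 3 groups lay below them without overlap. Against IgG1 iGC cells, IgG1 PC were 3.07-fold higher (log2 1.62, SE 0.09, adjusted p = 6.33e-10). IgE PC were 1.63-fold higher than IgE iGC cells (log2 0.70, SE 0.09, adjusted p = 6.32e-06), and the gain was smaller in IgE than in IgG1 (interaction -0.91, SE 0.13, adjusted p = 4.83e-05). Between the plasma cells, Bcl2l1 was 2.36-fold lower in IgE (log2 -1.24, SE 0.09, adjusted p = 1.8e-08, lower in 3 of 3). The IgG1 gain, the interaction and the plasma cell difference held under every scaling. The IgE gain was 0.23 under total-count scaling, still past the threshold, and -0.15 in TPM (adjusted p = 0.18).

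In the order of levels, IgE iGC (13.3 ± 0.97 CPM, n = 3) and IgG1 iGC (16.6 ± 0.50) did not differ by the test (log2 -0.33, adjusted p = 0.0671), then came IgE PC (21.5 ± 1.03), day 6 (50.3 ± 1.70) and IgG1 PC (50.9 ± 7.18). The iGC difference passed the threshold with DESeq2 (adjusted p = 0.0354), with total-count scaling (0.034), with no filter (0.0422) and in a fit of those 2 groups alone (0.0113).

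Fibroblast transcripts, which the 40LB feeder expresses, were high at day 6 and in IgG1 PC replicates 1 and 3, where Bcl2l1 was high too. They did not follow Bcl2l1 elsewhere, being lowest on average in IgE PC, where Bcl2l1 exceeded both iGC groups. Summed over 8 markers (Col1a1, Col1a2, Col3a1, Dcn, Lum, Sparc, Pdgfrb and Postn, all matched), they came to 156, 246 and 258 CPM at day 6 and 164, 53.7 and 152 CPM in IgG1 PC, against 24.2 to 49.6 CPM for IgG1 iGC, 38.8 to 55.7 CPM for IgE iGC and 17.1 to 28.6 CPM in IgE PC. Postn was at 0 in every library outside IgG1 PC, and Lum was at 0 in both IgE groups. Within IgG1 PC, replicate 2 had the lowest marker sum and the lowest Bcl2l1 level, 43.5 CPM, which was still above every iGC and IgE PC library. Without IgG1 PC replicate 1, the library with the most fibroblast transcripts of its group, the plasma cell difference in Bcl2l1 was -1.14, and without replicate 3 it was -1.23. The part of feeder transcripts in the Bcl2l1 levels was not tested.

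Bcl2l2 (ENSMUSG00000089682, chr14:54883377-54888234, plus strand) encodes BCL-W, a close relative of BCL-XL. It read 19.6, 22.5 and 21.0 CPM at day 6, 25.2, 24.7 and 27.8 CPM in IgG1 iGC, 26.5, 27.2 and 27.02 CPM in IgE iGC, 30.4, 33.0 and 32.3 CPM in IgG1 PC, and 54.8, 54.7 and 57.2 CPM in IgE PC. IgE PC stood alone at the top, and the remaining groups lay within 19.6 to 33.0 CPM. The gain from iGC to PC was 1.05 on the log2 scale in IgE (SE 0.06, adjusted p = 6.85e-10) and 0.30 in IgG1 (SE 0.06, adjusted p = 7.88e-04), and the gains differed (interaction 0.74, SE 0.09, adjusted p = 1.23e-05). IgE PC exceeded IgG1 PC by 0.80 (1.74-fold, SE 0.06, adjusted p = 4.97e-08). The isotype difference and the interaction held under every scaling, whereas the IgG1 gain was 0.07 under total counts (adjusted p = 0.425) and -0.35 in TPM (adjusted p = 0.0216), and the IgE gain was 0.23 in TPM (adjusted p = 0.102). The order was day 6 (21.0 ± 1.48), IgG1 iGC (25.9 ± 1.68), IgE iGC (26.9 ± 0.34), IgG1 PC (31.9 ± 1.32) and IgE PC (55.5 ± 1.42). The iGC groups were the only neighbours that did not differ by the test (log2 0.05, adjusted p = 0.799).

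Mcl1 (ENSMUSG00000038612, chr3:95658788-95663176, plus strand) encodes the short-lived member of the branch. Day 6 gave 412, 403 and 391 CPM, IgG1 iGC 754, 769 and 768 CPM, IgE iGC 883, 854 and 837 CPM, IgG1 PC 799.9, 778 and 678 CPM, and IgE PC 965, 898 and 962 CPM. The step that set groups apart was from day 6 to any day 8 subset: the rise was 0.93 on the log2 scale in IgG1 iGC, 1.09 in IgE iGC, 0.90 in IgG1 PC and 1.23 in IgE PC (SE 0.06 each, adjusted p at most 3.55e-09). The 4 comparisons share the day 6 libraries. In TPM the plasma cell steps were smaller: Mcl1 averaged 253 TPM at day 6, 284 in IgG1 PC and 290 in IgE PC. From iGC to PC no change passed the test in IgG1 (log2 -0.02, 95% interval -0.15 to 0.11, adjusted p = 0.767) or in IgE (0.13, 95% interval 0.00 to 0.26, adjusted p = 0.0676). The IgE value passed as higher with DESeq2 (adjusted p = 0.0197), RLE size factors (0.042), scaling without immunoglobulin genes (0.0223), a fit of those groups only (0.00611) and without IgE PC replicate 2 (0.0491). The interaction was 0.16 (95% interval -0.03 to 0.34, adjusted p = 0.16).

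Between plasma cells, Mcl1 was 1.25-fold higher in IgE (log2 0.32, SE 0.06, adjusted p = 3.26e-04, higher in 3 of 3). This small difference rests on the scaling: it was 0.08 with total counts (adjusted p = 0.225) and 0.04 in TPM (adjusted p = 0.669). On those scales Mcl1 was lower in plasma cells than in iGC cells, by -0.34 and -0.51 in IgE and by -0.26 and -0.42 in IgG1, each past the threshold. Its order of levels by CPM was day 6 (402 ± 10.5), IgG1 PC (752 ± 65.3), IgG1 iGC (764 ± 8.59), IgE iGC (858 ± 23.5) and IgE PC (942 ± 38.0). Apart from the first step, no pair of neighbours in that order differed by the test, with an adjusted p of 0.178 between the iGC groups.

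The A1 genes went the other way. Summed over the 3 copies, the day 6 libraries held 148, 176 and 174 CPM, IgG1 iGC 159.6, 179 and 199 CPM, IgE iGC 112, 109.6 and 118 CPM, IgG1 PC 94.2, 133 and 119.9 CPM, and IgE PC 44.7, 45.3 and 48.0 CPM. IgE PC lay below every other library, with no IgE PC library above 48.0 CPM and no other library under 94.2 CPM. Day 6 and IgG1 iGC overlapped at the top (log2 0.11, adjusted p = 0.378), and IgE iGC and IgG1 PC overlapped in the middle (0.03, adjusted p = 0.816). The sum was lower in IgE than in IgG1 at both stages: by -0.66 in iGC cells (SE 0.11, adjusted p = 0.00218) and by -1.33, or 2.52-fold, in PC (SE 0.11, adjusted p = 1.28e-07). It fell by 0.63 from iGC to PC in IgG1 (SE 0.11, adjusted p = 1.64e-04) and fell by 1.301 in IgE (SE 0.11, adjusted p = 6.06e-08), and the falls differed (interaction -0.67, SE 0.16, adjusted p = 0.00291). These 5 calls of the sum held under each alternative in which it was computed.

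Taken by copy, Bcl2a1b and Bcl2a1d had the calls of the sum in the contrasts between day 8 subsets. Bcl2a1b had 96.2, 110.1 and 109.5 CPM at day 6, 95.5, 106.6 and 118 CPM in IgG1 iGC, 65.3, 65.3 and 71.8 CPM in IgE iGC, 52.4, 76.3 and 70.3 CPM in IgG1 PC, and 29.3, 27.3 and 28.3 CPM in IgE PC. Bcl2a1d had 49.97, 61.9 and 59.96 CPM, then 62.6, 70.7 and 78.1 CPM, 45.4, 43.4 and 44.4 CPM, 40.6, 54.1 and 47.3 CPM, and 14.2, 17.4 and 18.7 CPM in the same order of groups. Both were lowest in IgE PC without overlap. Unlike the sum, Bcl2a1d was called higher in IgG1 iGC than at day 6 (0.30, adjusted p = 0.0308). That call was lost under total counts (0.0999), in TPM (0.366) and with no filter (0.0604). It was also lost without day 6 replicate 1 (0.139), IgG1 iGC replicate 2 (0.0594) or IgG1 iGC replicate 3 (0.126). Bcl2a1b and Bcl2a1d were lower in IgE than in IgG1 by -1.23 and -1.50 in PC (adjusted p = 4.31e-07 and 9.45e-08). In iGC cells the 2 copies were lower in IgE by -0.66 and -0.67 (adjusted p = 0.00273 and 0.00354). Their interactions were -0.57 (adjusted p = 0.0103) and -0.84 (adjusted p = 0.00107).

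Bcl2a1a had 2.20, 3.91 and 4.29 CPM at day 6, 1.54, 1.83 and 2.90 CPM in IgG1 iGC, 1.52, 0.97 and 2.07 CPM in IgE iGC, 1.15, 2.84 and 2.35 CPM in IgG1 PC, and 1.13, 0.66 and 1.05 CPM in IgE PC. The groups of this copy overlapped except where IgE PC met IgG1 PC, IgG1 iGC or day 6, and where IgE iGC met day 6. Its plasma cell difference was -1.18 with an SE of 0.39 (adjusted p = 0.017), and the call was lost without IgG1 PC replicate 2 (-0.91, adjusted p = 0.0715) or without IgE PC replicate 2 (-0.97, adjusted p = 0.0754). In view of the shared reads, the agreement of copies is no separate evidence for any of them.

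Markers of myeloid cells, which express A1 strongly, were lowest in IgE PC and highest in IgG1 iGC, as the sum was, but low at day 6, where the sum was high. The summed level of 8 markers (Lyz2, Csf1r, Itgam, Adgre1, Cd14, S100a8, S100a9, Mpo) in IgG1 iGC was 7.06 to 8.58 CPM; it was 4.62 to 6.92 CPM for IgE iGC, 3.02 to 3.41 CPM at day 6, 2.55 to 4.94 CPM in IgG1 PC and 0.46 to 0.79 CPM in IgE PC. S100a9 was at 0 in every library and S100a8 at 0 in all but IgG1 PC, and most of the sum outside day 6 was Itgam, at a mean of 6.12 CPM in IgG1 iGC. The part of such cells in the Bcl2a1 difference was not tested. The 6 T cell markers summed to at most 2.24 CPM in any library, with Cd3e at 0 in all but IgG1 PC.

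**Figure D2:**
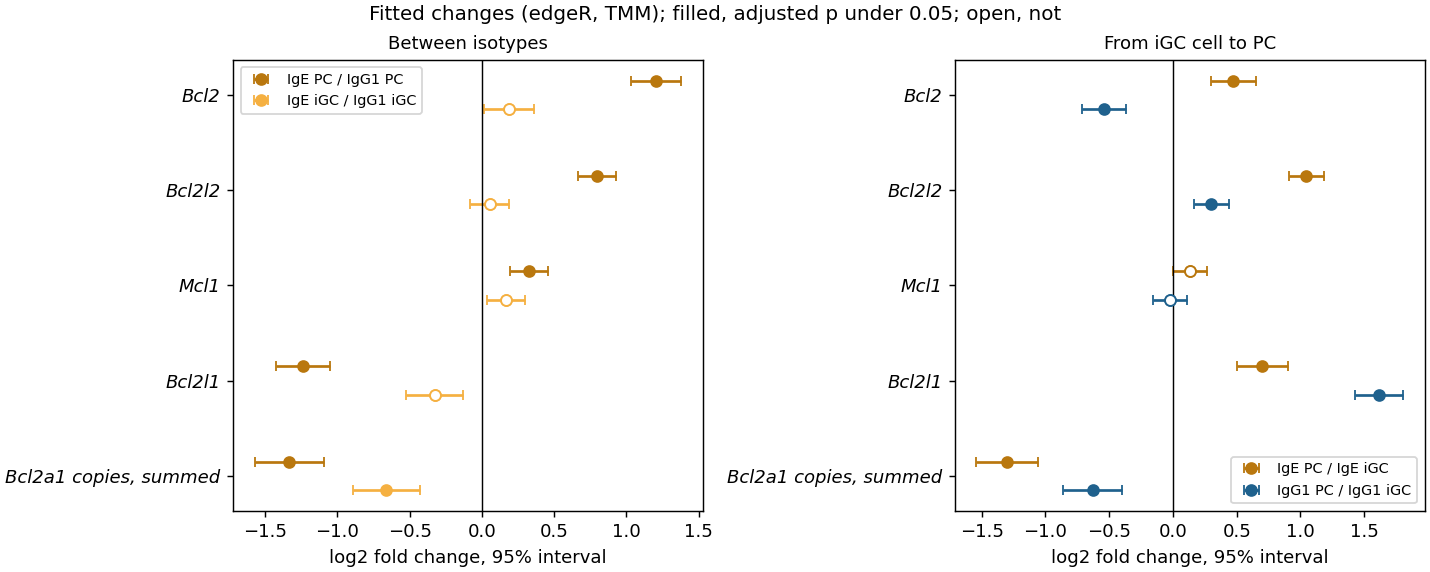
Fitted log2 fold changes (edgeR, TMM) with 95% intervals for Bcl2, Bcl2l2, Mcl1, Bcl2l1 and the summed Bcl2a1 copies; left, IgE against IgG1 within PC and within iGC cells; right, PC against iGC cells within each isotype; filled points passed an adjusted p of 0.05. Only the Bcl2a1 sum (-0.66) passed between iGC cells, and Bcl2 sits on opposite sides of 0 for IgE (0.47) and IgG1 (-0.54) on the right.

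Between IgE PC and IgG1 PC, 7 of 7 members were called, 3 higher in IgE (Bcl2, Bcl2l2, Mcl1) and 4 lower (Bcl2l1 and the Bcl2a1 copies). The background was high: 58.1% of all genes tested were called there, 27.4% higher and 30.7% lower, and the libraries of the 2 groups did not overlap for 59.2% of genes and for 7 of 7 members. Under total counts and in TPM 6 of 7 were called, without Mcl1, and the Bcl2a1a call was lost without replicate 2 of either group. The median log2 fold change was -1.18 over the members and -0.05 over all genes. That member median is the value of Bcl2a1a, and it is negative because A1 enters as 3 copies. With the copies summed, the values were 1.21 (Bcl2), 0.80 (Bcl2l2), 0.32 (Mcl1), -1.24 (Bcl2l1) and -1.33 (the sum), with Mcl1 in the middle. The members thus had no common direction. The 3 Bcl2a1 copies share reads, so the members are not 7 separate counts.

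Between IgE iGC and IgG1 iGC cells, 2 of 7 were called, both lower in IgE (Bcl2a1b and Bcl2a1d), where 3.87% of all genes were called, 1.99% higher and 1.88% lower. Libraries of the 2 groups did not overlap for 5 of 7 members and for 27.5% of genes. With the spread estimated from those 2 groups alone, 5 of 7 were called, adding Bcl2 (0.18, adjusted p = 0.00811), Mcl1 (0.16, adjusted p = 0.0168) and Bcl2l1 (-0.34, adjusted p = 0.0113); the count over all genes was 1503 in place of 607. In all 3 of these the direction was that of the plasma cells.

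From iGC to PC, 5 of 7 members were called in IgE, 3 higher and 2 lower, against 64.1% of all genes (30.5% higher, 33.6% lower), and 5 of 7 in IgG1, 2 higher and 3 lower, against 59.1% of all genes (30.1% higher, 29% lower). These shares are near the background. The interaction was called for 5 of 7 (Bcl2 and Bcl2l2 more positive in IgE, Bcl2l1, Bcl2a1b and Bcl2a1d more negative), against 42.9% of all genes (19.8% more positive, 23.1% more negative). The call was not made for Mcl1 or for Bcl2a1a (-0.69, adjusted p = 0.329).

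Against day 6, IgE iGC cells had 7 of 7 called (69.1% of all genes), IgG1 iGC cells 5 (68.4%), IgE PC 7 (76.4%) and IgG1 PC 5 (71.9%), with the day 6 libraries shared by all 4. Bcl2, Bcl2l2 and Mcl1 were higher in every subset than at day 6 by CPM, although in TPM Bcl2 (-0.38) and Bcl2l2 (-0.10) were lower in IgG1 PC than at day 6. Bcl2l1 was lower by -1.93 in IgE iGC, -1.60 in IgG1 iGC and -1.23 in IgE PC, with no difference called in IgG1 PC by CPM but one called under total counts (-0.27, adjusted p = 0.0048) and in TPM (-0.67). The Bcl2a1 sum was lower by -0.55 in IgE iGC, -0.52 in IgG1 PC and -1.85 in IgE PC, with no difference called in IgG1 iGC (0.11).

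**Figure D3:**
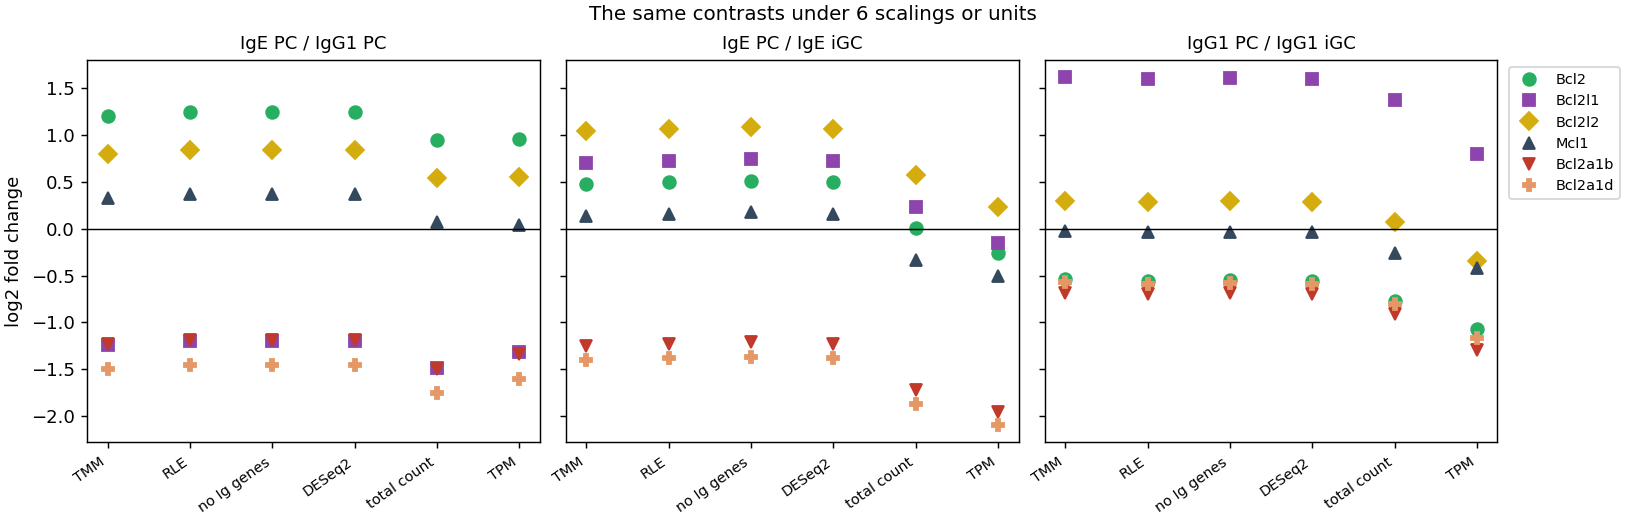
Log2 fold changes of 6 members in 3 contrasts (panels) under 6 scalings or units (x axis): TMM, RLE, TMM without immunoglobulin genes, DESeq2, total counts and limma on log2(TPM + 1). The first 4 lie close together, while total counts and TPM shift most members down in the plasma cell contrasts, taking Bcl2 in IgE PC against IgE iGC from 0.47 to 0.01 and -0.26.

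Total counts moved the median of all genes about as far as the members, whereas TPM moved some members farther than the median. The median log2 fold change over all genes from IgE iGC to IgE PC was -0.08 with TMM, -0.55 with total counts and -0.49 in TPM; for IgG1 it was 0.01, -0.22 and -0.42, and between the plasma cells -0.05, -0.30 and -0.11. Bcl2 in IgE PC against IgE iGC stayed above the median of all genes on each scale, although in TPM it was itself called lower (-0.26).

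Ratios between members within a library carry no library scaling at all. By TPM, which allows levels of different genes to be set side by side, Bcl2 stood to Bcl2l1 at 3.27 ± 0.25 in IgE PC (range 3.10 to 3.55) and 3.54 ± 0.45 in IgE iGC, at 2.38 ± 0.25 in IgG1 iGC, and at 0.62 ± 0.13 in IgG1 PC (0.53 to 0.77) and 0.50 ± 0.08 at day 6 (SD, n = 3 each). Bcl2 transcripts thus outnumbered Bcl2l1 transcripts in IgE PC and both iGC groups, and Bcl2l1 outnumbered Bcl2 in IgG1 PC and at day 6, in 3 of 3 libraries of each. Mcl1 stood to the Bcl2a1 sum at 0.67 ± 0.08 at day 6, 1.02 ± 0.11 in IgG1 iGC, 1.77 ± 0.14 in IgE iGC, 1.84 ± 0.46 in IgG1 PC and 5.10 ± 0.15 in IgE PC, where every library (4.94 to 5.23) exceeded every other (at most 2.36). The ratio of Mcl1 to Bcl2 was lowest in IgE PC (9.52 ± 0.57) and highest in IgG1 PC (18.7 ± 1.34).

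As shares of the summed TPM of the 7 genes, the make-up of the pool varied among the groups. At day 6 the A1 copies held most of it, 53.9% ± 2.7, and Mcl1 35.9% ± 2.4. The shares of A1 and Mcl1 were 45.9% and 46.6% in IgG1 iGC, 33.0% and 58.4% in IgE iGC, 32.1% and 57.5% in IgG1 PC, and 14.1% and 71.9% in IgE PC. IgE iGC and IgG1 PC were alike and overlapped in both of these shares. Bcl2 held 7.57% ± 0.47 in IgE PC against 3.08% ± 0.15 in IgG1 PC, Bcl2l2 4.05% ± 0.20 against 2.19% ± 0.17, and Bcl2l1 2.32% ± 0.03 against 5.08% ± 0.81. By TPM, none of these 5 shares overlapped between the plasma cell groups. With 3 libraries against 3 an exact test could not pass the threshold, and none was run. The summed TPM itself was 404 ± 8.5 in IgE PC, 497 ± 73.7 in IgG1 PC, 706 ± 37.4 at day 6, and among iGC cells 708 ± 9.8 for IgE and 814 ± 53.8 for IgG1. TPM is relative to all transcripts of a library, immunoglobulin included, whereas the shares are relative to the 7 genes alone.

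**Figure D4:**
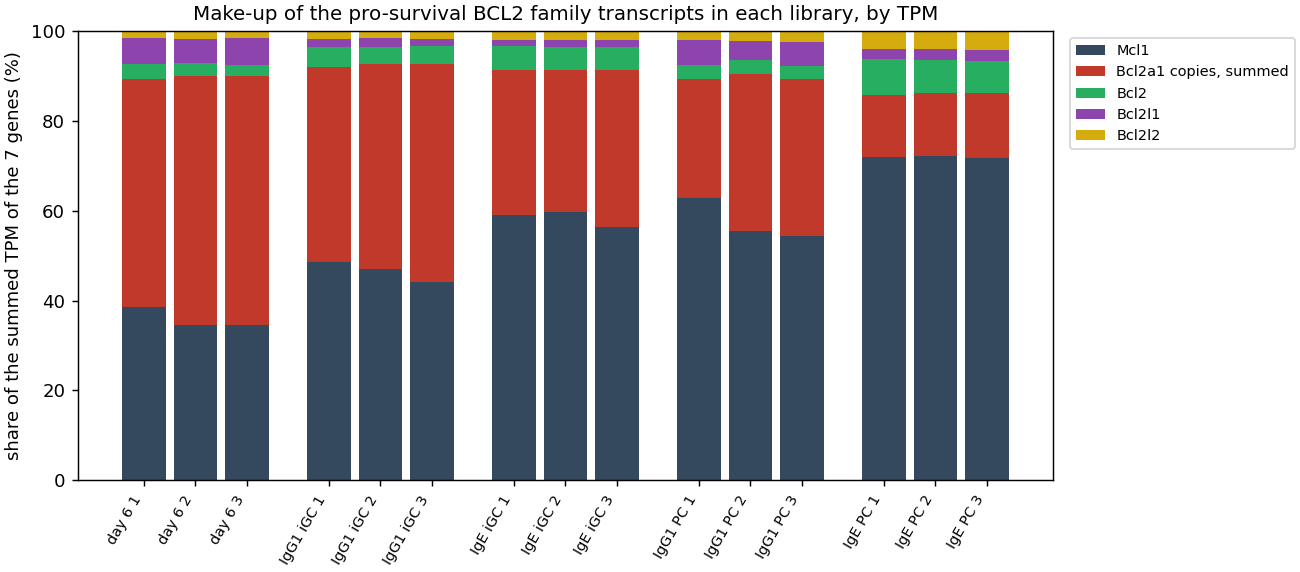
Share of the summed TPM of the 7 genes taken by Mcl1, the 3 Bcl2a1 copies summed, Bcl2, Bcl2l1 and Bcl2l2 in each of the 15 libraries (stacked to 100%). The Bcl2a1 share goes from 50.7% to 55.5% at day 6 down to 13.8% to 14.5% in IgE PC, and the Mcl1 share in IgE PC is 71.7% to 72.2%.

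The partners and regulators of these genes were taken as lists and tested on the TMM scale only. With total counts the median of all genes between the plasma cells moves from -0.05 to -0.30. List members with small positive differences would thus lie nearer 0 there, and those with negative differences farther below 0. Among BH3-only genes, 6 of 8 passed the count filter (Bik and Hrk did not), and between the plasma cells 2 were higher in IgE and 3 lower, where 58.1% of all genes were called. Bbc3 (PUMA) averaged 42.0 ± 2.41 CPM in IgE plasma cells and 17.9 ± 2.93 CPM in IgG1 plasma cells (log2 1.24, SE 0.10, adjusted p = 7.97e-08, n = 3 each), and Bmf 59.5 ± 2.37 CPM and 30.2 ± 1.93 CPM (0.97, SE 0.09, adjusted p = 1.95e-07). Bcl2l11 (BIM), the activator that the whole pro-survival branch binds, was lower in IgE PC, at 119 ± 2.06 CPM against 207 ± 6.94 CPM (-0.80, SE 0.05, adjusted p = 4.33e-09). It was also the BH3-only gene with the greatest change in IgG1, from 58.9 ± 1.71 CPM in iGC cells to PC (1.81, SE 0.05, adjusted p = 2.09e-13), against 0.90 in IgE, and those gains differed (interaction -0.91, SE 0.07, adjusted p = 1.92e-07). Between iGC cells Bbc3 (0.45, adjusted p = 0.0214) and Bmf (0.37, adjusted p = 0.0254) were already higher in IgE and Bid was lower (-0.25).

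**Figure D5:**
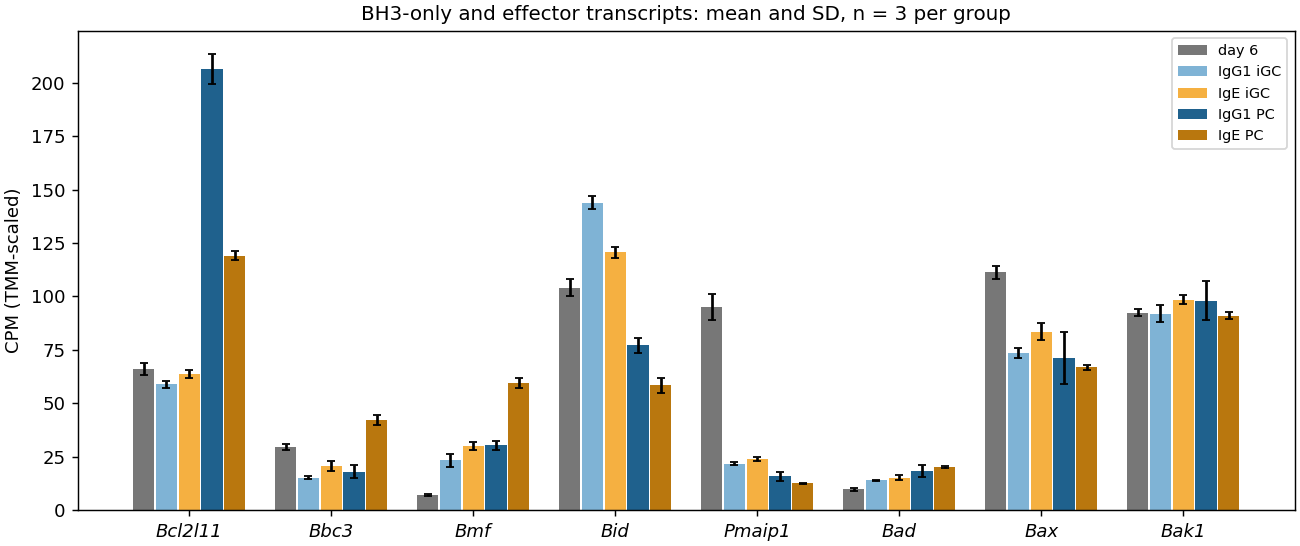
Mean CPM and SD (bars, n = 3 per group, axis from 0) of 6 BH3-only genes and the effectors Bax and Bak1 in the 5 groups. Bcl2l11 is highest in IgG1 PC (207), Bbc3 (42.0) and Bmf (59.5) in IgE PC, and Pmaip1 at day 6 (95.1).

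Of the effectors Bax, Bak1 and Bok, Bok was below the filter, and between the plasma cells 0 of 2 were called by edgeR (Bax -0.09, adjusted p = 0.407; Bak1 -0.11, adjusted p = 0.14, unadjusted 0.329 and 0.0952). Bax was 66.9 ± 1.09 CPM among IgE and 71.2 ± 12.1 CPM among IgG1 plasma cells, and lower in IgE PC than in IgE iGC by -0.32. Against day 6, Bax was called lower in every subset, by -0.41 in IgE iGC, -0.60 in IgG1 iGC, -0.74 in IgE PC and -0.65 in IgG1 PC. Among other BCL2 relatives, 5 of 6 passed the filter, Bcl2l10 not, and 2 were lower in IgE PC than in IgG1 PC. The more abundant of them was Bcl2l12 (7.42 ± 0.29 against 14.9 ± 2.24 CPM, log2 -1.005, adjusted p = 2.17e-06), and the other, Bcl2l14, was under 1 CPM in both.

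Of 7 genes whose products govern the turnover of MCL1 protein, 5 were called higher in IgE PC than in IgG1 PC and 0 lower, where 27.4% of all genes were called higher, with a median log2 fold change of 0.37 against -0.05 over all genes; the other two, Huwe1 (0.23) and Btrc (-0.13), did not pass. Usp9x, a deubiquitinase that stabilises MCL1, averaged 481 ± 12.54 CPM among IgE and 226 ± 53.0 CPM among IgG1 plasma cells (1.08, SE 0.12, adjusted p = 1.69e-06). Gsk3b, the kinase that marks MCL1 for destruction, was higher by 0.66 (120 ± 6.29 against 75.3 ± 10.002 CPM), and Marchf5, a mitochondrial ubiquitin ligase, by 0.63 (97.6 ± 5.01 against 63.3 ± 7.74 CPM). The list thus holds genes that act on MCL1 in opposite directions. Transcripts say nothing of the amount of MCL1 protein.

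Of 8 receptors that feed these genes, 3 were higher and 5 lower in IgE than in IgG1 plasma cells, where 58.1% of all genes were called. Cd40, the receptor for the ligand on the feeder, averaged 12.03 ± 0.97 CPM in IgE PC, 32.6 ± 5.18 CPM in IgG1 PC, 74.7 ± 3.57 CPM in IgE iGC and 84.7 ± 4.34 CPM in IgG1 iGC. It was lower in IgE PC than in IgG1 PC by -1.44 (SE 0.10, adjusted p = 1.22e-08), and its fall from iGC to PC was greater in IgE (interaction -1.26, adjusted p = 3.44e-06). Il4ra was lower in IgE PC as well (101 ± 9.17 against 181 ± 11.6 CPM, -0.84). Tnfrsf17 (BCMA), the plasma cell receptor that sustains Mcl1 in bone marrow and also a plasma cell marker above, was higher (8.36 ± 0.68 against 4.003 ± 1.123 CPM, 1.07, adjusted p = 4.53e-04). Il6st, the shared signalling chain of the IL-6 receptor, rose from iGC to PC in both isotypes, by 3.17 in IgE and 2.64 in IgG1.

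Among 9 NF-κB and STAT genes, 7 were lower and 1 higher in IgE PC than in IgG1 PC, with a median of -0.35, where 30.7% of all genes were lower. The 3 with the largest differences were Nfkb2 (115 ± 8.18 against 210 ± 28.8 CPM, log2 -0.87, SE 0.08, adjusted p = 3.86e-07), Stat5a (-0.79) and Relb (-0.67). From iGC to PC 7 of 9 fell in each isotype, against 33.6% of all genes in IgE and 29% in IgG1, with Rel lower by -1.76 in IgE and -1.26 in IgG1. Xiap, an inhibitor of caspases that acts after the mitochondrion, was higher in IgE PC than in IgG1 PC by 0.77 (adjusted p = 2.91e-04).

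Genes with the most similar pattern to each member were sought over the 5 group means, by the root mean square difference between centred log2 CPM, among 8236 genes. For Bcl2 these were Add3 (0.0960), Thap6 (0.101) and Ttc9c (0.130), where the median over all genes was 0.595. Add3, for one, went from 93.7 CPM at day 6 to 118 in IgG1 PC, 173 in IgG1 iGC, 205 in IgE iGC and 234 in IgE PC, the order of Bcl2. For Bcl2l1 the nearest were Vat1 (0.280), Tmem176b (0.308) and Gnaz (0.317), against a median of 0.904, so its pattern had the least close matches of the members. For Bcl2l2 they were Rffl (0.0265), Kmt2e (0.0637) and Dpm1 (0.0637), for Mcl1 Trim56 (0.0385), Stx16 (0.0392) and Nfkbil1 (0.0424), and for the Bcl2a1 sum Mical3 (0.1002), Fam234b (0.104) and Dhrs3 (0.128). With 5 points each, these are descriptions of shape only.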

How the data were processed

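PolyA RNA from 15 libraries was sequenced as 76-base single-end strand-specific reads, per the labels' protocols. Cutadapt 1.9.1, STAR 2.5.2a, RSEM 1.3.0, DESeq2 1.12.3 and GRCm38 are named in the submitters' processing notes; the annotation used is not given in the sources used here. The authors deposited RSEM expected counts per gene, not scaled, and TPM, which is scaled by effective length and by the library's total, as the file headers name them.

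Expected counts were rounded and tested with edgeR 4.0.16 (quasi-likelihood, robust, TMM, R 4.3.3) in 1 fit of 15 libraries with 1 mean per group. Genes passed edgeR's expression filter (minimum count 10, total 15), which left 15692, and p-values were adjusted over these by Benjamini-Hochberg with a threshold of 0.05. Standard errors were derived as the absolute log2 fold change over the square root of F and are approximate. The spread behind every p-value is that between these libraries; the labels call them biological replicates without naming separate animals. The Bcl2a1 sum replaced the 3 copies in the same fit. The fit was tested on simulated data.

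The alternatives were DESeq2 1.42.0, RLE size factors, total-count scaling, scaling without immunoglobulin genes, no filter, a replicate block, limma 3.58.1 on log2(TPM + 1), only the groups compared, CPM in place of TPM, Bcl2a1c added to the pool, and each library left out. The members and lists were chosen with earlier results of these data known. All members were named, and from each pathway list up to 3 called genes per contrast with the largest log2 fold change and a mean of at least 5 CPM in a group. The list of genes acting after the mitochondrion is not reported in full here. Bax, Bak1, Bcl2l14, Huwe1 and Btrc were named after their values were seen. Symbols were taken from the annotation table, and 51633 of 51912 gene IDs matched. Positions are from GENCODE vM21.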

Additional observations from a re-analysis of the deposited data

Results flagged for a closer look

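The change from iGC cells to PC differed between the isotypes, by the interaction term of the same edgeR fit with Benjamini-Hochberg adjustment, for 5 of the 7 genes and for the Bcl2a1 sum. The difference (IgE change minus IgG1 change, log2) was 1.02 for Bcl2, where the isotypes changed in opposite directions by TMM-scaled CPM, and 0.74 for Bcl2l2. It was -0.91 for Bcl2l1, -0.57 for Bcl2a1b, -0.84 for Bcl2a1d and -0.67 for the Bcl2a1 sum. Of all genes tested, 42.9% had such a difference called.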

How the results depend on the processing

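For single members, 554 values kept direction and side of the threshold under the alternatives that keep all libraries of the groups, 17 passed it newly, 18 lost it and 27 changed sign. The interactions of Bcl2, Bcl2l1, Bcl2l2 and the Bcl2a1 sum, and their differences between the plasma cells, kept their call in every alternative run for them. The sign changed for Bcl2l1 in IgG1 PC against day 6 with DESeq2 (-0.024), RLE size factors (-0.023), total counts (-0.27) and TPM (-0.67). Under total counts and TPM it changed for Mcl1 in IgE PC against IgE iGC (-0.34 and -0.51) and against IgG1 iGC (-0.18 and -0.38), for the Mcl1 interaction (-0.077 and -0.089), for Bcl2l1 in IgE PC against IgG1 iGC (-0.11 and -0.52), for Bcl2a1a in IgG1 PC against IgG1 iGC (-0.17 and -0.46), for Bcl2a1b in IgG1 iGC against day 6 (-0.029 and -0.11), and for Bcl2a1d in IgG1 PC against IgE iGC (-0.12 and -0.50). The Bcl2a1 sum in IgG1 PC against IgE iGC was -0.18 under total counts. In TPM alone it changed for Bcl2 in IgE PC against IgE iGC (-0.26) and IgG1 iGC (-0.10) and in IgG1 PC against day 6 (-0.38), for Bcl2l1 in IgE PC against IgE iGC (-0.15), for Bcl2l2 in IgE iGC against IgG1 iGC (-0.024) and in IgG1 PC against IgG1 iGC (-0.35), IgE iGC (-0.32) and day 6 (-0.10), and for Bcl2a1a in IgG1 PC against IgE iGC (-0.075). These 2 scales keep immunoglobulin transcripts in the total; beyond that the cause was not tested.

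Leaving out 1 library at a time turned the sign of values near 0 only: in IgG1 PC against IgE iGC the Bcl2a1 sum ranged from -0.10 to 0.16, Bcl2a1b from -0.15 to 0.12 and Bcl2a1d from -0.033 to 0.19; Bcl2a1a in IgG1 PC against IgG1 iGC ranged from -0.23 to 0.35, Mcl1 there from -0.071 to 0.044, Bcl2a1b in IgG1 iGC against day 6 from -0.050 to 0.10, and Bcl2l1 in IgG1 PC against day 6 from -0.078 to 0.13. The count of all genes called between iGC cells was 607, with 937 by DESeq2, 1503 in a fit of those groups only, and 323 to 403 with 1 library left out. There 5 members were called in the fit of those groups only. In TPM the interaction was called for 4345 genes in place of 6733, and 3 members in place of 5 in IgG1 iGC against day 6. The call of Bcl2a1d in IgG1 PC against day 6 (adjusted p = 0.0458) was lost with no filter (0.0903) and without immunoglobulin genes in the scaling (0.0992). It was also lost in a fit of IgG1 PC and day 6 only (0.101). The same held without day 6 replicate 2 (0.158) or 3 (0.126), and without IgG1 PC replicate 1 (0.201) or 3 (0.0985).

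With CPM in place of TPM, which lets long transcripts weigh more, the shares of the pool in day 6, IgG1 iGC, IgE iGC, IgG1 PC and IgE PC were 56.0%, 67.9%, 73.2%, 71.8% and 73.2% for Mcl1, 10.9%, 12.47%, 13.7%, 9.20% and 17.3% for Bcl2, 2.93%, 2.30%, 2.30%, 3.06% and 4.32% for Bcl2l2, and 23.1%, 15.9%, 9.68%, 11.1% and 3.58% for the Bcl2a1 sum. For Bcl2l1 they were 7.01% in day 6, 1.47% in IgG1 iGC, 1.13% in IgE iGC and 1.67% in IgE PC. The IgG1 PC share of Bcl2l1 by CPM is not given here. The Mcl1 share was thus close between the plasma cells by CPM, at 73.2% in IgE and 71.8% in IgG1. By TPM it was 71.9% and 57.5%, so that separation rests on the unit.

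With the replicate number as a block, Bcl2 differed by 1.21 between the plasma cells, 9005 genes were called there in place of 9119, and the block changed no call of a member in any comparison. Over 30 pairs of libraries with the same number, deviations from the group means correlated at -0.20 to 0.09 (mean -0.01), and 0 pairs exceeded 0.1, so the numbers were not taken to pair the libraries. Depth limits Bcl2a1a above all, at 20.63 counts in its lowest library.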
